A study of Mus musculus with 4 samples.

Results

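The 10 genes described here belong to the interleukin 6 (IL-6) cytokine family and its feedback control. They comprised 5 cytokines (Il6, Il11, Lif, Osm and Clcf1), 4 receptor chains (Il6st, Il6ra, Osmr and Lifr) and the inhibitor Socs3. They were taken by gene symbol, by a rule that holds no measured value, from the 32285 genes of the deposited UMI count tables. The choice of genes was made with earlier results of these data known. Each of the 10 had UMIs in every library, with totals over the kept cells from 865 UMIs for Il11 to 183224 for Socs3.

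The tables held droplet single-cell RNA-seq of tibial muscle from Nse-Bmp4 mice, a C57BL/6 line studied as a model of heterotopic ossification (bone formed in soft tissue). The age given is 6-8 weeks. In this line the rat neuron-specific enolase (Nse) promoter drives a Bmp4 cDNA, and which cells expressed the transgene was not tested here. Muscle was injured with cardiotoxin, a snake venom toxin that destroys muscle fibres, and collected 1, 3 or 7 days later (1, 3 and 7 dpi, days post injury), beside an Uninjured library. The uninjured muscle carried the transgene as well, so every comparison below is injured against uninjured within 1 genotype. Each time point was 1 library of 3 pooled muscles digested with collagenase, so a difference between time points cannot be told apart from a difference between libraries, and no test or p-value is given. The 95% intervals printed below cover counting error only.

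The 5 cytokines described here signal through receptor complexes that contain gp130, the product of Il6st. Other chains take part in ligand binding: Il6ra binds IL-6, Lifr binds leukemia inhibitory factor, and Osmr pairs with gp130 to bind oncostatin M. The complexes activate JAK kinases and the transcription factor STAT3, and STAT3 induces Socs3, which then blocks gp130 signalling. In injured muscle the family is known for its roles in the inflammatory phase and in the growth of muscle progenitor cells.

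The 4 libraries held between 91146335 and 129007669 UMIs and between 11722 and 23752 barcodes, and 52853 cells of 62665 were kept after filtering. Median UMIs per kept cell were 8638 in Uninjured and 5896, 4338 and 3049 at 1, 3 and 7 dpi, and the median mitochondrial share was 1.76%, 3.61%, 3.21% and 2.77%. Between 30 and 95 barcodes occurred in both libraries of a pair. Cells were assigned to classes by marker genes, and 48 of 51 further markers were highest in the class they belong to; the exceptions were Musk, Mpeg1 and Zbtb46. Mesenchymal stromal cells (MSC lineage) numbered 8423, 3911, 6638 and 11951 in Uninjured, 1, 3 and 7 dpi. Monocytes and macrophages numbered 282, 1706, 931 and 295, and neutrophils 52, 541, 349 and 83. Chondrocytes (4682 cells) passed the gate at 7 dpi only, and 912 cells of that library lay near its limit.

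Several of the genes lie beside each other on the mouse genome (GRCm38, GENCODE M21). Lif (chr11:4257557-4272514) and Osm (chr11:4236420-4241026) are both on the plus strand of chromosome 11, which also carries Socs3 (chr11:117966079-117970047, minus strand). The receptor genes Osmr (chr15:6813577-6874969, minus strand) and Lifr (chr15:7090614-7197489, plus strand) share a stretch of chromosome 15. Il6 is at chr5:30013114-30019981, Il11 at chr7:4772373-4782859, Clcf1 at chr19:4214238-4223490, Il6st at chr13:112464070-112510086 and Il6ra at chr3:89864059-89913196.

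The RefSeq promoter windows of mouse GRCm38.p6 were searched for 3 motifs: the STAT palindrome TTCNNNGAA, the AP-1 site TGANTCA and the NF-kB site GGGANTTTC. The first and second read the same on both strands, and the last was searched on both. Of the 10 genes 8 had a window, and a match was found in 4 of them (Il6, Il11, Lif and Socs3). Osm and Clcf1 had no window. The motifs were in 7.02%, 6.75% and 0.941% of the 32851 windows in the table, so a match is a description of the letters and not a site. The runs are shown because these genes carry the cytokine and feedback results below; capitals mark the motifs, all runs are written 5′ to 3′ on the strand of the gene, and coordinates are 1-based. In Il6 (chr5:30012864-30013113, plus strand, the 250 bases before the start) the AP-1 match began 249 bases and the NF-kB match 44 bases before the start. In Lif (chr11:4257318-4257377, plus strand) the AP-1 match lay 228 bases before the start. In Il11 (chr7:4778206-4778265, minus strand, upstream of the nearer of 2 RefSeq starts and intronic to 2 longer annotated transcripts) the AP-1 match lay 98 bases before that start. In Socs3 (chr11:117969467-117969616, minus strand, without an annotated exon and inside 1 longer annotated transcript) the STAT match lay 154 bases before the start.
Il6: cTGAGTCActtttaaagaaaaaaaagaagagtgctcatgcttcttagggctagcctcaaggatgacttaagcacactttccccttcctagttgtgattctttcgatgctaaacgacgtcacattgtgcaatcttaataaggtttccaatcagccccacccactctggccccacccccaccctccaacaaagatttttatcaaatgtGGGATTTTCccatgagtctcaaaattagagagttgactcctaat
Lif: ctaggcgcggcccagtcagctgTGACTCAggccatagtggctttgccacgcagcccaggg
Il11: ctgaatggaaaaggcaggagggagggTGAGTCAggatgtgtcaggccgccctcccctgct
Socs3: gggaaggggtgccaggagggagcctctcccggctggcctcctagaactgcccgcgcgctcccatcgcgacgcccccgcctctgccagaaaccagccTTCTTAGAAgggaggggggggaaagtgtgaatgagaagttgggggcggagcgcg

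The UMIs of the 5 cytokines did not all lie in the same cells. MSC lineage cells held most Il6 UMIs of the kept cells, 97.9%, 81.6%, 96.1% and 71.9% in Uninjured, 1, 3 and 7 dpi. They also held most Il11 UMIs (92.8%, 88.4%, 93.5% and 70.5%) and most Lif UMIs (91.4%, 68.5%, 78.8% and 79.5%). Osm lay mainly in myeloid cells until 3 dpi: monocytes and macrophages held 64.0%, 49.7%, 35.7% and 26.96% of its UMIs, and neutrophils 23.7%, 40.2%, 34.3% and 20.0%. At 7 dpi MSC lineage cells (19.4%), cells without a class (17.7%) and chondrocytes (10.8%) held much of the rest. Clcf1 was spread over mesenchymal and lymphoid cells. MSC lineage cells held 47.6%, 17.9%, 39.1% and 56.9% of its UMIs, NK and T cells 15.9%, 23.2%, 14.8% and 9.59%, and B cells 9.52%, 23.3%, 3.44% and 0.436%. These shares follow both the level per cell and the number of cells of each class in the library.

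**Figure D1:**
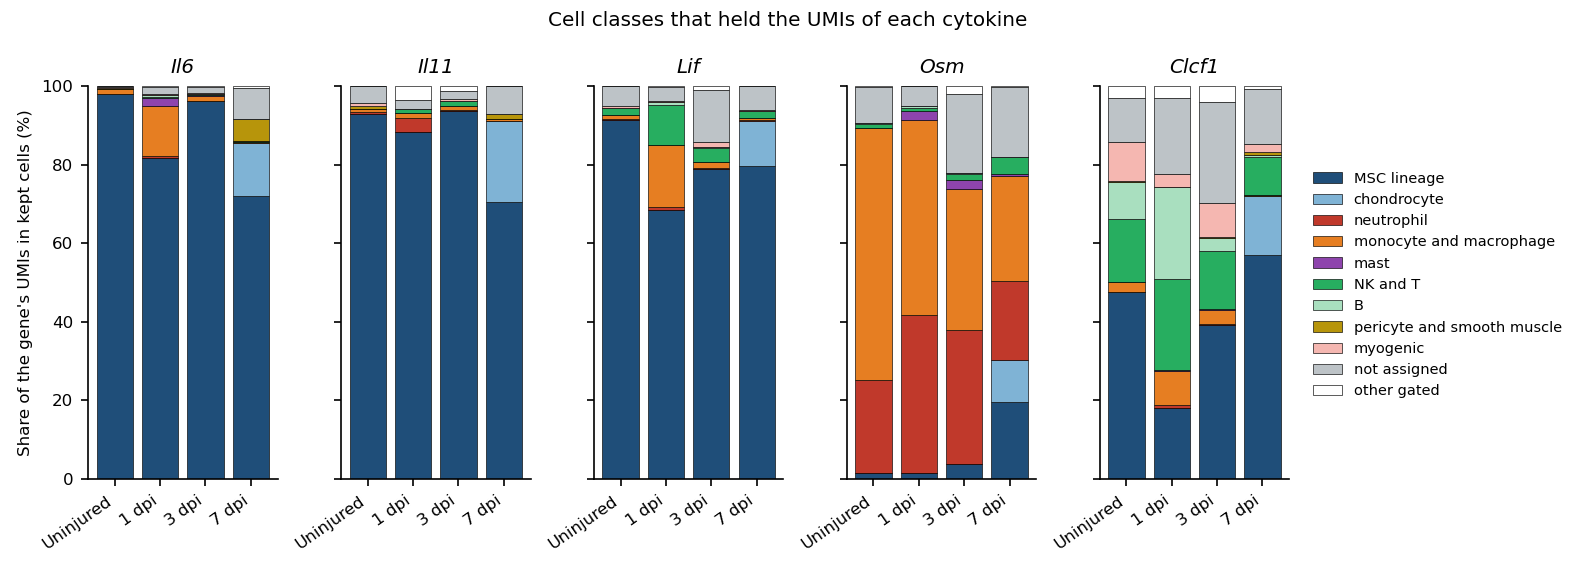
Stacked bars give the percent of each cytokine's UMIs in kept cells that fell in each cell class, with 1 bar per library (Uninjured, 1, 3 and 7 dpi). Il6 lay in MSC lineage cells (97.9% in Uninjured, 71.9% at 7 dpi), while Osm lay in myeloid cells (40.2% in neutrophils and 49.7% in monocytes and macrophages at 1 dpi).

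Il6, the cytokine after which the family is named, was highest in MSC lineage cells at 3 dpi and lowest there at 7 dpi. Levels are given in CPM, the UMIs of the gene per 1e+06 UMIs of the class. In MSC lineage cells Il6 was at 59.99 CPM in Uninjured (58.3 to 61.7), 145 at 1 dpi (141 to 149), 217 at 3 dpi (213 to 220) and 48.1 at 7 dpi (46.4 to 49.8). No interval overlapped another, and the 7 dpi library lay below the Uninjured one. The level was 2.42-fold higher at 1 dpi than in Uninjured (2.33 to 2.52), 1.49-fold higher at 3 dpi than at 1 dpi (1.44 to 1.54), and 4.50-fold lower at 7 dpi than at 3 dpi. Cells with at least 1 Il6 UMI were 19.2%, 28.9%, 40.6% and 13.1% of MSC lineage cells, at a median depth of 9150, 8027, 5490 and 3226 UMIs. In B cells, taken as a class that should lack Il6, the share was 1.01%, 1.95%, 1.91% and 1.06%, at a median depth of 2452, 2834, 1764 and 1450 UMIs. Thinned to 1000 UMIs per cell, 4.44%, 8.82%, 15.1% and 4.24% of MSC lineage cells had an Il6 UMI, against at most 1.13% of B cells. At equal depth 3 dpi and then 1 dpi were again the highest libraries, while the Uninjured and 7 dpi shares lay close together. The median of all genes tested also shifted by 0.17 on the log2 scale from Uninjured to 1 dpi in the same cells, and the 1 dpi difference in Il6 was larger than that shift.

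Outside the MSC lineage, Il6 was present in myeloid, mast and vascular cells. Monocytes and macrophages were at 25.9 CPM in Uninjured (19.8 to 33.4), 59.7 at 1 dpi (55.7 to 63.9), 34.1 at 3 dpi (29.1 to 39.8) and 11.2 at 7 dpi (6.28 to 18.5). Their highest library was therefore 1 dpi and not 3 dpi, 2.30-fold over Uninjured (1.77 to 3.04) and 1.75-fold over 3 dpi (1.48 to 2.08). Within that class at 1 dpi, cells with both Ly6c2 and Chil3 (markers of monocytes) were at 69.6 and the other cells at 47.0 CPM. Mast cells, although few (49 cells at 1 dpi and 55 at 3 dpi), were at 334 (279 to 397) and 204 (147 to 274) CPM, but 60 of the 130 UMIs at 1 dpi and 21 of the 43 at 3 dpi were in 1 cell each. Pericytes and smooth muscle cells were at 19.6 CPM in Uninjured (11.996 to 30.3) and 161 at 7 dpi (141 to 182), 8.18-fold higher (5.18 to 13.6), with a UMI in 41.5% of their cells at 7 dpi. At 1 dpi all 9 Il6 UMIs of that class were in 1 cell, so its intermediate libraries are not read. At 7 dpi the order was pericytes and smooth muscle cells, endothelial cells (90.5, 58.6 to 134), MSC lineage cells and chondrocytes, and neighbours in it did not overlap.

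The early difference in Il6 was unequal among MSC lineage cells. Cells with both Pi16 and Dpp4, markers known from fibroblasts of fascia and of the sheath of vessels, were at 101, 197, 235 and 79.3 CPM in the 4 libraries, and the rest of the class at 29.1, 120, 213 and 45.9. The ratio of the first to the second was 3.47 in Uninjured (3.26 to 3.70), 1.65 at 1 dpi, 1.10 at 3 dpi and 1.73 at 7 dpi, so the gap was narrowest at the time of the highest level. Cells with both Smoc2 and Col15a1, markers known from fibroblasts between the fibres, were at 30.7, 101, 210 and 58.4 CPM. They were the lower group in Uninjured, where the rest of the class was 3.29-fold higher. Cells with both Cxcl5 and Prg4 were at 262 CPM at 1 dpi against 127 in the rest (2.07-fold, 1.94 to 2.20) and at 265 against 190 at 3 dpi. Cells with both Lrrc15 and Tnn, which appeared from 3 dpi, were at 111 CPM against 226 in the rest at 3 dpi and 36.8 against 53.4 at 7 dpi. Calling a cell by 2 detected markers selects deeper cells. The Cxcl5 and Prg4 cells of 3 dpi had a median of 16258 UMIs and the Lrrc15 and Tnn cells 22174, against 5490 in the class. These values are given in CPM and not as shares of cells, but CPM can differ with depth as well. MSC lineage barcodes of 3 dpi that were too deep to be kept were at 107 CPM, against 217 in the kept class. The part of depth in the contrasts between such groups, here and below, was not tested.

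**Figure D2:**
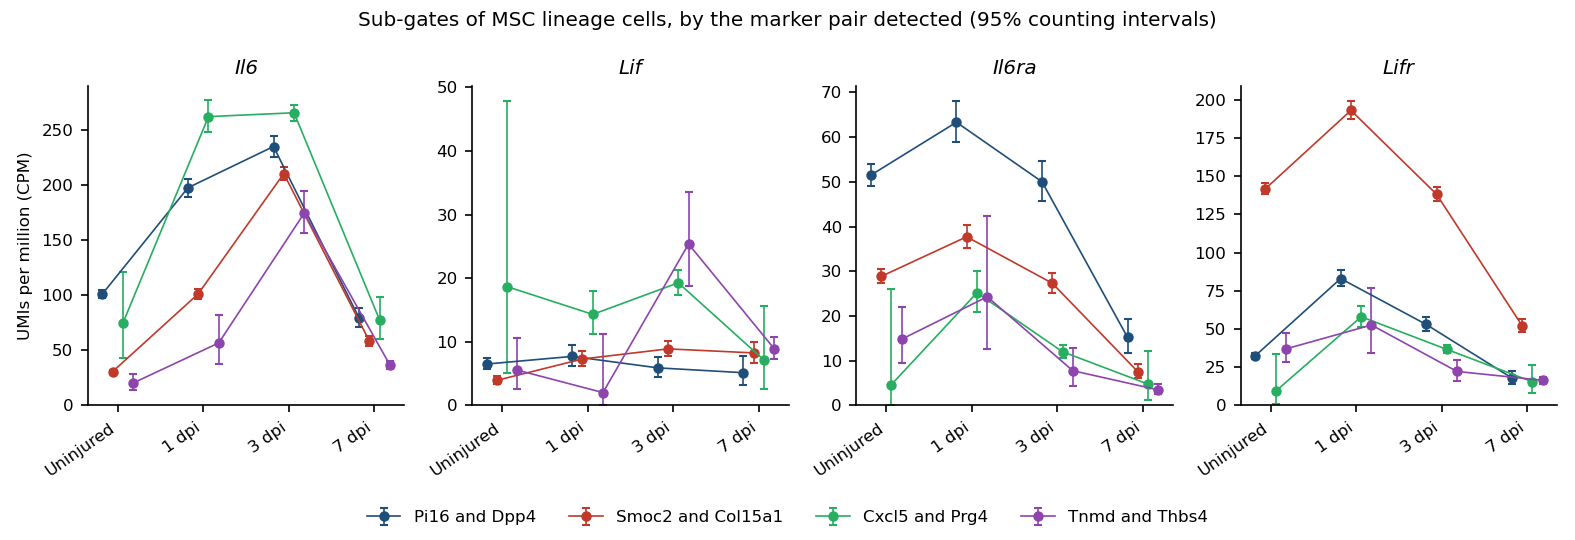
Levels of Il6, Lif, Il6ra and Lifr (CPM, points, with bars for 95% counting intervals) in 4 marker-defined groups of MSC lineage cells in each library. In Uninjured, Il6 was 101 in Pi16 and Dpp4 cells and 30.7 in Smoc2 and Col15a1 cells, and Lifr was 32.4 and 142.

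Il11, a cytokine of stromal cells linked to fibrosis and bone, was sparse but highest at 3 dpi. MSC lineage cells held 128, 76, 346 and 191 UMIs, or 1.62 CPM in Uninjured (1.35 to 1.92), 2.12 at 1 dpi (1.67 to 2.66), 6.06 at 3 dpi (5.44 to 6.74) and 2.96 at 7 dpi (2.56 to 3.42). The interval of 3 dpi lay above the others, while those of Uninjured and 1 dpi overlapped. The level was 2.86-fold higher at 3 dpi than at 1 dpi (2.22 to 3.71) and 2.05-fold lower at 7 dpi than at 3 dpi. Cells with a UMI were 1.42%, 1.74%, 2.70% and 1.48% of the class, and no B cell had one. At 1 dpi (1331 B cells, median depth 2834 UMIs) this allows a level of up to 0.856 CPM. Cells with both Lrrc15 and Tnn at 3 dpi were at 18.9 CPM (15.2 to 23.2) against 4.88 in the rest of the class, 3.88-fold higher (3.02 to 4.94), and at 7 dpi at 3.30 against 2.81. At 3 dpi these cells were deeper than the class, and the part of depth in the difference was not tested. Thinned to 1000 UMIs the share of cells with a UMI was 0.41% at 1 dpi and 0.364% at 3 dpi, so the difference between those libraries was not seen in the share of cells at equal depth, and up to 21 UMIs were in 1 cell at 3 dpi.

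Much Il11 lay outside the kept cells, in barcodes above the upper limit on depth. This look was chosen after the data were seen. These barcodes were 1.61%, 2.13%, 2.69% and 3.22% of all cells in Uninjured, 1, 3 and 7 dpi, and held 9.47%, 11.2%, 16.4% and 16.8% of all UMIs. They held 78.2% of Il11 UMIs in Uninjured (74.9 to 81.2), 7.0% at 1 dpi (2.86 to 13.9), 67.8% at 3 dpi (65.2 to 70.3) and 31.8% at 7 dpi (27.4 to 36.4). The Uninjured, 3 and 7 dpi shares were thus above the share of all UMIs and the 1 dpi share was not. In Uninjured 533 of 682 Il11 UMIs were in 40 such cells, with 157, 73 and 34 UMIs in the 3 highest, and at 3 dpi 891 of 1314 were in 68 cells, with 243, 179 and 79 in the 3 highest. Those that met the MSC lineage gate were at 51.3, 0.842, 59.3 and 8.46 CPM. With no cell filter, Il11 in MSC lineage cells was at 6.74 CPM in Uninjured, 1.86 at 1 dpi, 16.4 at 3 dpi and 3.93 at 7 dpi, so the direction between Uninjured and 1 dpi turned. Whether these barcodes hold 1 cell or several was not tested. Of the other genes, such barcodes held 22.9%, 6.85%, 26.3% and 18.4% of Lif UMIs, 11.5%, 13.9%, 10.3% and 13.3% of Il6 UMIs, and 1.82%, 6.00%, 4.67% and 13.4% of Socs3 UMIs. Osm (0.575% to 2.63%), Il6ra (1.51% to 6.70%) and Lifr (0.688% to 12.1%) lay below the share of all UMIs in each library.

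**Figure D3:**
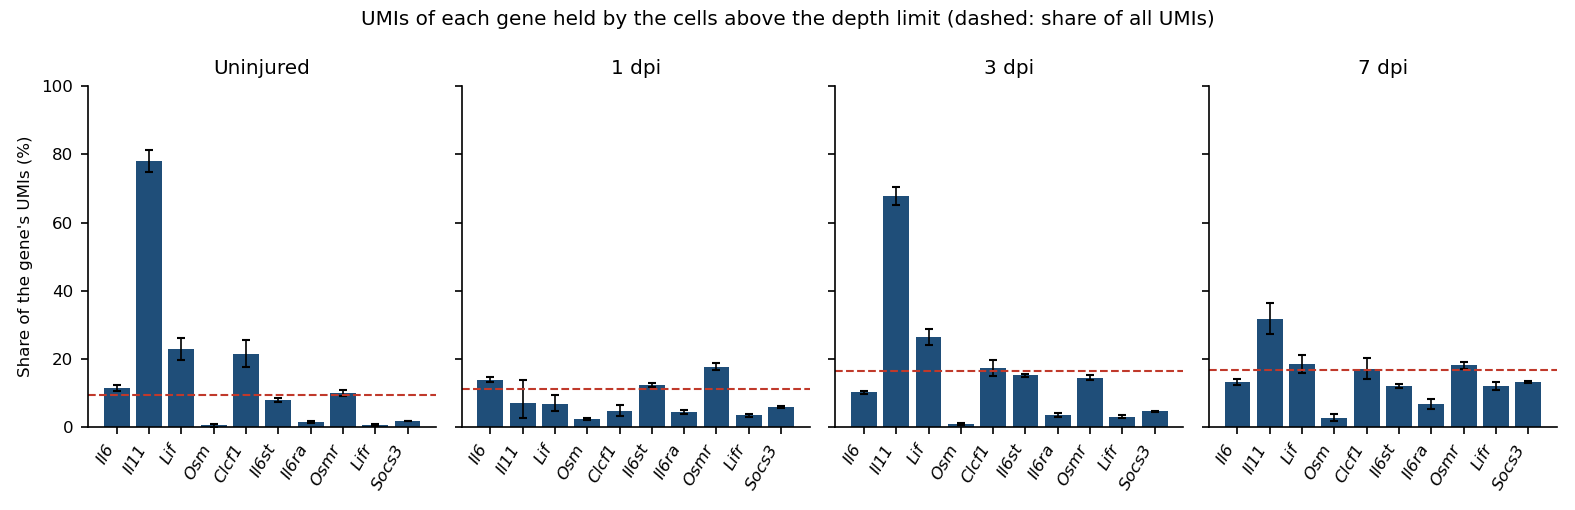
Bars give the percent of each gene's UMIs that lay in barcodes above the upper depth limit of their library, and the dashed red line the percent of all UMIs in those barcodes. Il11 stood above the line in Uninjured (78.2% against 9.47%), 3 dpi (67.8% against 16.4%) and 7 dpi (31.8% against 16.8%), and Socs3 below it in each library.

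Lif, the leukemia inhibitory factor, followed the same order as Il6 in MSC lineage cells up to 3 dpi, over a smaller range. It was at 5.26 CPM in Uninjured (4.77 to 5.79), 8.21 at 1 dpi (7.30 to 9.20), 11.9 at 3 dpi (11.0 to 12.8) and 8.07 at 7 dpi (7.39 to 8.79). The 1 and 7 dpi intervals overlapped, and the other pairs were separate. The level was 1.56-fold higher at 1 dpi than in Uninjured (1.34 to 1.82) and 1.45-fold higher at 3 dpi than at 1 dpi (1.26 to 1.67), both under 2-fold. A Lif UMI was found in 4.59%, 5.29%, 6.15% and 3.34% of MSC lineage cells, against at most 0.532% of B cells. Cells with both Cxcl5 and Prg4 at 3 dpi were at 19.3 CPM against 7.89 in the rest (2.44-fold, 2.09 to 2.85), and cells with both Tnmd and Thbs4, markers of tendon cells, at 25.4 (2.22-fold over the rest, 1.63 to 2.97). Pi16 and Dpp4 cells of that library had the lower level, 5.91 against 13.2, while their Il6 in the same library was slightly above the rest, as given above. NK and T cells were at 4.70 CPM in Uninjured (2.03 to 9.26), 10.6 at 1 dpi (7.67 to 14.3), 7.87 at 3 dpi (5.31 to 11.2) and 5.85 at 7 dpi (3.02 to 10.2), overlapping MSC lineage cells in every library. No Lif UMI was found in pericytes and smooth muscle cells or in Schwann cells.

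Clcf1, cardiotrophin-like cytokine factor 1, is a ligand of the ciliary neurotrophic factor receptor, and its level was higher in NK and T cells than in MSC lineage cells in every library. B cells were at 55.2 CPM in Uninjured (37.2 to 78.8), 34.8 at 1 dpi (29.5 to 40.8), 31.0 at 3 dpi (20.4 to 45.1) and 6.24 at 7 dpi, the last from 2 UMIs. NK and T cells were at 29.4, 36.7, 30.4 and 21.4 CPM and overlapped B cells in each of the libraries. Among them, natural killer cells were at 50.2, 51.7, 41.0 and 23.7 and T cells at 29.9, 30.9, 20.6 and 19.0. Myogenic cells, the muscle stem cells and their progeny, were at 22.8 in Uninjured and 48.5 at 1 dpi (30.4 to 73.4), 2.13-fold higher (1.18 to 3.801), then at 14.5 and 8.996. In MSC lineage cells Clcf1 was at 1.90, 3.21, 5.38 and 4.05 CPM, 1.69-fold higher at 1 dpi than in Uninjured (1.32 to 2.17) and 1.68-fold higher at 3 dpi than at 1 dpi (1.35 to 2.09). A UMI was found in 1.70%, 2.79%, 4.19% and 2.12% of MSC lineage cells, in 14.6%, 9.92%, 7.38% and 1.06% of B cells, and in at most 1.11% of neutrophils (median depth 3052, 4653, 2206 and 1303 UMIs). Neutrophils were picked from the data as a low class, since B cells, the class planned as lacking Clcf1, had UMIs in the shares just given.

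Osm, oncostatin M, had its highest level in neutrophils in all 4 libraries, although monocytes and macrophages held more of its UMIs. Neutrophils were at 1073 CPM in Uninjured (948 to 1210), 1574 at 1 dpi (1535 to 1614), 1461 at 3 dpi (1398 to 1526) and 1323 at 7 dpi (1138 to 1529), and 78.8%, 81.9%, 70.5% and 57.8% of them had a UMI. The 1 dpi level was 1.47-fold over Uninjured (1.30 to 1.67). The median of the tested genes with UMIs in both of these libraries moved by 0.51 on the log2 scale. Scaled to that median ratio of genes, the Osm difference was 0.05 instead of 0.55 on that scale. Monocytes and macrophages were at 310 CPM in Uninjured (288 to 334), 551 at 1 dpi (539 to 564), 453 at 3 dpi (434 to 472) and 185 at 7 dpi (162 to 209), with separate intervals. Their level was 1.77-fold higher at 1 dpi than in Uninjured (1.64 to 1.92) and 2.45-fold lower at 7 dpi than at 3 dpi (2.15 to 2.81). Neutrophils were above monocytes and macrophages in every library without overlap, and mast cells reached 907 at 1 dpi (815 to 1006) and 701 at 3 dpi (593 to 823).

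Within monocytes and macrophages, Osm was higher in cells with both Ly6c2 and Chil3 than in the rest until 3 dpi. Cells with Ly6c2 and Chil3 were at 554, 617, 746 and 152 CPM and the rest of the class at 269, 466, 394 and 193, a ratio of 2.06, 1.32, 1.89 and 0.789. Cells with C1qa and C1qb, markers of mature macrophages, were at 219, 444, 301 and 89.1 against 345, 610, 623 and 231 in the rest, and were the lower group at each time. Natural killer cells were at 14.4, 43.6, 32.2 and 38.9 CPM and T cells at 6.50, 21.5, 13.9 and 13.7. In MSC lineage cells, which should lack Osm, its level was 0.215, 6.20, 3.803 and 2.76 CPM, and 0.190%, 5.11%, 2.21% and 1.13% of cells had a UMI. In B cells the share was 1.51%, 3.76%, 1.37% and 0%, and at 1 dpi after thinning 0.872% of MSC lineage cells and 1.06% of B cells had one. The MSC lineage value at 1 dpi, 28.8-fold over Uninjured (17.6 to 50.4), is therefore given as a value and not read as expression. Its source was not tested, and with doublets kept the log2 ratio was 2.88 instead of 4.85. Over all kept cells Osm was at 12.5, 211, 68.7 and 9.27 CPM, so the class levels varied less than the level in the whole library, in which the numbers of neutrophils and monocytes also differed.

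The receptor chains lay in different cells. Il6st, which encodes gp130, was found in every class. MSC lineage cells were at 138 CPM in Uninjured (135 to 140), 211 at 1 dpi (207 to 216), 265 at 3 dpi (261 to 270) and 125 at 7 dpi (123 to 128), each apart from the others. The 1 dpi level was 1.54-fold over Uninjured (1.49 to 1.58). Endothelial cells were at 371 (40 UMIs in 22 cells), 312, 345 and 384 and had the highest level at 7 dpi, without overlap with the next class. Schwann cells, the glia of peripheral nerves, were at 125, 253, 285 and 130, 2.03-fold higher at 1 dpi than in Uninjured (1.60 to 2.58). Neutrophils were at the other end with 4.03, 2.34, 11.4 and 7.23 CPM, and monocytes and macrophages had 21.2, 35.9, 39.0 and 17.96. T cells were at 37.7, 64.4, 47.7 and 20.1 and natural killer cells at 7.18, 8.17, 13.2 and 10.1. Pericytes and smooth muscle cells were at 49.1 in Uninjured and 192 at 7 dpi, 3.90-fold higher (2.88 to 5.38).

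Il6ra, which binds IL-6 itself, was highest in monocytes and macrophages, and in MSC lineage cells it had the largest fold of the 4 receptor chains between 3 and 7 dpi. Monocytes and macrophages were at 122 CPM in Uninjured (109 to 137), 151 at 1 dpi (145 to 158), 160 at 3 dpi (149 to 172) and 138 at 7 dpi (119 to 159). The intervals of 1, 3 and 7 dpi overlapped each other, and the 1 dpi level was 1.24-fold over Uninjured (1.09 to 1.41). The median of all genes moved by 0.22 on the log2 scale between those libraries, and after scaling to it the Il6ra difference was 0.09 instead of 0.31. MSC lineage cells were at 37.3 (36.0 to 38.7), 44.9 (42.8 to 47.2), 28.0 (26.6 to 29.4) and 5.69 (5.13 to 6.31), without overlap, and 4.91-fold lower at 7 dpi than at 3 dpi (4.38 to 5.52). Their log2 ratio of 3 dpi to 1 dpi was -0.68, but -0.12 with equal weight per cell and -0.37 after thinning. Under these 2 alternatives the log2 ratio of 1 dpi to Uninjured was 0.33 and 0.44. The place of 3 dpi below Uninjured is therefore not read. A UMI was found in 26.3%, 28.8%, 18.7% and 2.87% of MSC lineage cells and, after thinning, in 3.64%, 4.97%, 3.72% and 0.799%. In myogenic cells, the class with the lowest levels, the share was 0.559%, 2.38%, 2.90% and 2.94%, at a median depth of 6433, 5107, 13192 and 5009 UMIs. The 7 dpi share over all MSC lineage cells thus did not stand above that of a class with little Il6ra. Myogenic cells were picked for this from the data, since MSC lineage cells, the class planned as lacking Il6ra, had UMIs in the shares above. Pi16 and Dpp4 cells held more Il6ra than the rest in every library (51.5 against 26.6, 63.3 against 35.9, 49.998 against 23.3 and 15.2 against 5.02 CPM), with a ratio of 3.03 at 7 dpi (2.28 to 3.97). T cells were at 81.9, 84.2, 41.8 and 50.8, while natural killer cells had 1 Il6ra UMI in all, at 1 dpi. Neutrophils were at 56.5, 61.5, 52.0 and 108.

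Osmr, which pairs with gp130 to bind oncostatin M, was absent or near background in the cells that carried Osm. In MSC lineage cells it was at 35.2 CPM in Uninjured (33.9 to 36.5), 85.8 at 1 dpi (82.8 to 88.9), 114 at 3 dpi (111 to 117) and 41.2 at 7 dpi (39.7 to 42.8). No interval overlapped, and the level was 2.44-fold higher at 1 dpi than in Uninjured (2.31 to 2.57), 1.33-fold higher at 3 dpi than at 1 dpi (1.28 to 1.39) and 2.77-fold lower at 7 dpi than at 3 dpi (2.65 to 2.90). A UMI was found in 24.2%, 41.1%, 46.3% and 17.0% of these cells against at most 0.526% of B cells, and in 3.28%, 7.36%, 10.8% and 4.09% after thinning. Endothelial cells were at 204 (22 UMIs in 22 cells), 148, 175 and 105. Pericytes and smooth muscle cells were at 36.3 in Uninjured and 112 at 7 dpi, 3.08-fold higher (2.14 to 4.52). Their 1 and 3 dpi values, 77.0 and 83.9, rest on 14 UMIs in 18 cells and 11 UMIs in 20 cells and are not read. Monocytes and macrophages had at most 2.33, NK and T cells at most 2.89 and neutrophils at most 3.56 CPM. Osmr and Il6 had the same order of libraries in MSC lineage cells up to 3 dpi, although at 7 dpi Il6 was below and Osmr above its Uninjured level.

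Lifr, which binds leukemia inhibitory factor, peaked earlier than Il6st and Osmr. MSC lineage cells were at 90.5 CPM in Uninjured (88.4 to 92.6), 140 at 1 dpi (137 to 144), 78.9 at 3 dpi (76.6 to 81.2) and 24.4 at 7 dpi (23.2 to 25.6). The highest library was 1 dpi, 1.55-fold over Uninjured (1.496 to 1.61) and 1.78-fold over 3 dpi (1.71 to 1.85), and 7 dpi was 3.24-fold below 3 dpi (3.06 to 3.43). The log2 ratio of 3 dpi to 1 dpi was -0.83, but -0.37 with equal weight per cell and -0.33 after thinning. Under these 2 alternatives the log2 ratio of 1 dpi to Uninjured was 0.66 and 0.69. The place of 3 dpi below Uninjured is therefore not read. Smoc2 and Col15a1 cells were at 142, 193, 138 and 52.2 CPM against 18.7, 66.2, 38.6 and 17.7 in the rest, a ratio of 7.57 in Uninjured (6.97 to 8.24), then 2.92, 3.58 and 2.95. Pi16 and Dpp4 cells were at 32.4, 83.05, 53.0 and 18.02, so in Uninjured the MSC lineage cells with more Il6 had less Lifr. Schwann cells were at 43.8 in Uninjured and 165 at 1 dpi, 3.77-fold higher (2.63 to 5.53), then at 146 and 27.4. Monocytes and macrophages were at 33.3, 29.5, 58.3 and 35.9, 1.98-fold higher at 3 dpi than at 1 dpi (1.69 to 2.31). Dendritic cells were at 130 at 1 dpi and 114 at 3 dpi. Their Uninjured and 7 dpi values, 22.4 and 71.0, rest on 3 UMIs in 13 cells and 6 UMIs in 15 cells and are not read. Lifr UMIs were found in 38.1%, 48.4%, 33.5% and 10.1% of MSC lineage cells and in 1.51%, 2.25%, 3.01% and 1.60% of B cells.

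**Figure D4:**
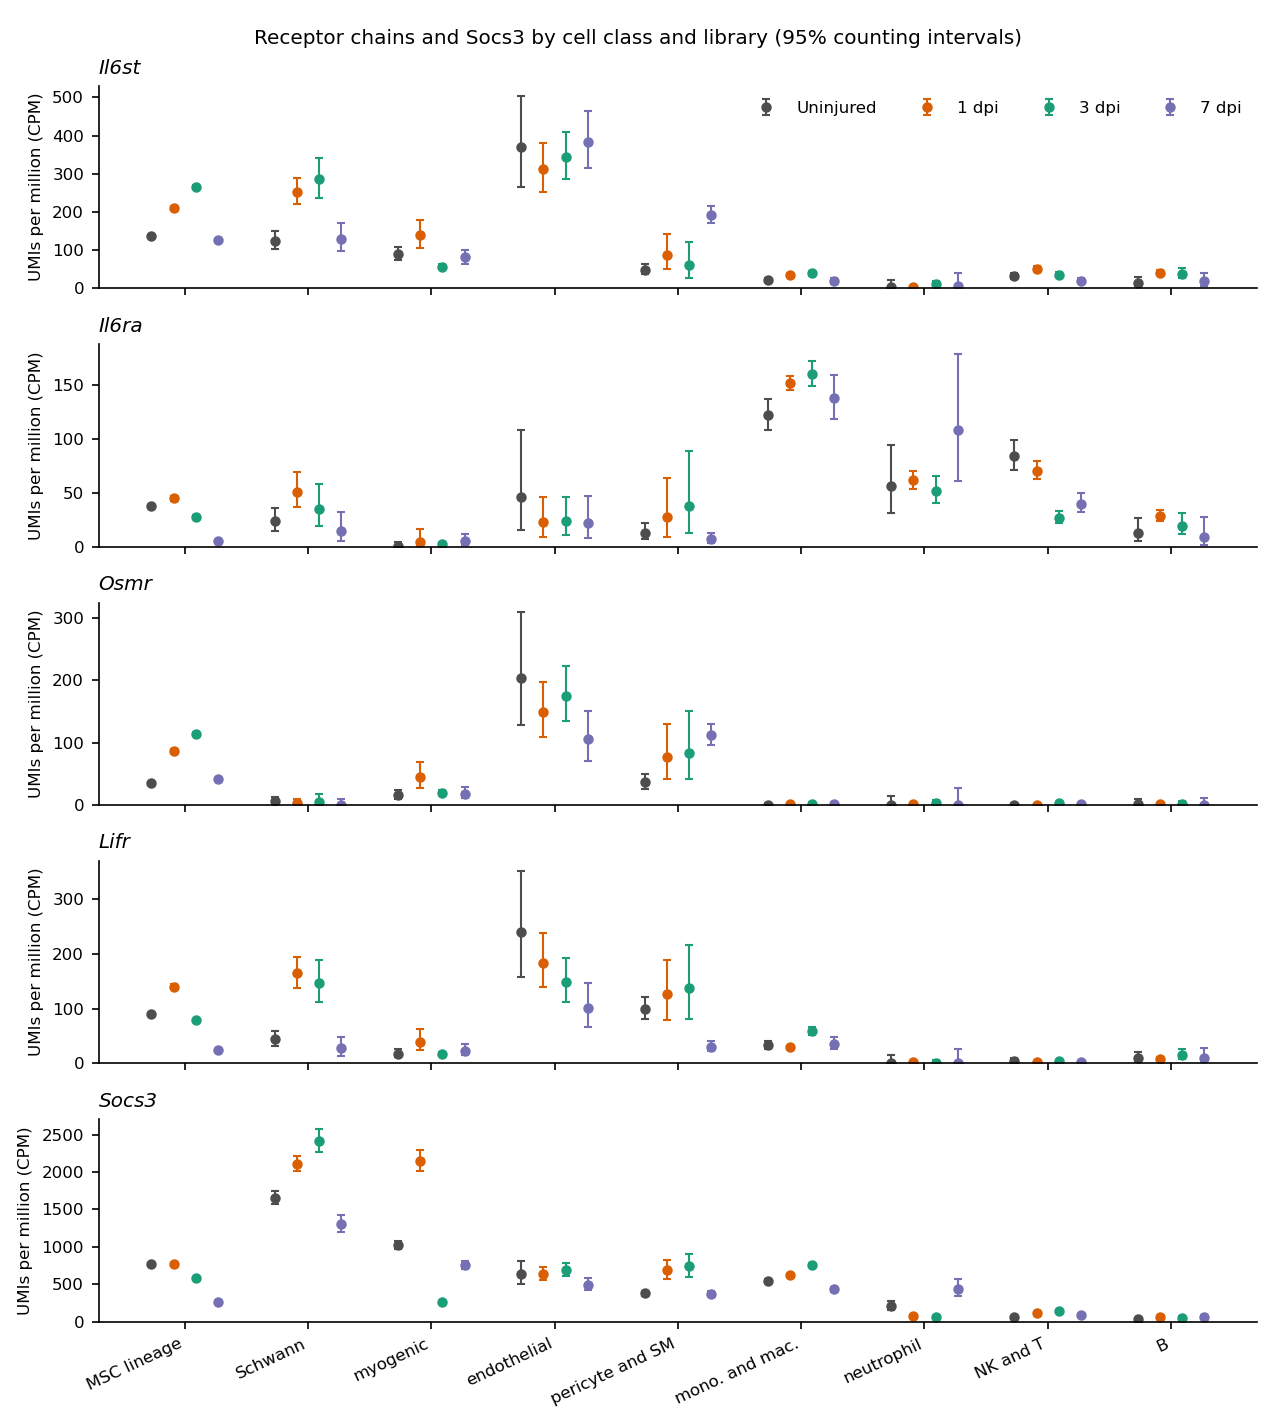
Levels of Il6st, Il6ra, Osmr, Lifr and Socs3 (CPM) in 9 cell classes, with 1 mark per library and bars for 95% counting intervals. Osmr was at most 3.56 in neutrophils and 114 in MSC lineage cells at 3 dpi, while Il6ra was 160 in monocytes and macrophages and 28.0 in MSC lineage cells of that library.

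Socs3, the feedback inhibitor of gp130 signalling, did not follow the cytokines in MSC lineage cells. It was at 772 CPM in Uninjured (766 to 778), 774 at 1 dpi (765 to 783), 580 at 3 dpi (574 to 587) and 256 at 7 dpi (252 to 260). The Uninjured and 1 dpi intervals overlapped, with a ratio of 1.00 (0.989 to 1.02), while Il6, Il6st and Osmr were all higher at 1 dpi. The 3 dpi level was 1.33-fold below 1 dpi and the 7 dpi level 2.27-fold below 3 dpi (2.23 to 2.31). Socs3 is also induced when tissue is dissociated. The summed level of 10 dissociation and immediate early genes in MSC lineage cells was 28930, 18688, 10552 and 9052.5 CPM in time order, beside a median mitochondrial share of 1.71%, 3.68%, 3.18% and 2.79%. Their part in the Socs3 levels was not tested. Lrrc15 and Tnn cells of 3 dpi were at 164 CPM against 619 in the rest, which was 3.76-fold higher, and at 7 dpi at 191 against 286. At 3 dpi these cells were deeper than the class. MSC lineage barcodes above the depth limit of that library were at 147 CPM, and the part of depth in the difference was not tested.

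Other classes varied more in Socs3. Myogenic cells were at 1028 CPM in Uninjured (975 to 1083), 2154 at 1 dpi (2021 to 2293), 260 at 3 dpi (246 to 275) and 753 at 7 dpi (700 to 808), and so were 8.28-fold lower at 3 dpi than at 1 dpi (7.60 to 9.01). The summed dissociation genes of these cells had the same order of libraries, 44541, 74237, 7957.4 and 22378 CPM, and their part in the result was not tested. The median depth of myogenic cells was 6433, 5107, 13192 and 5009 UMIs, so they were deepest at 3 dpi. The class also pools muscle stem cells with their progeny. The parts of depth and of this mix in the result were not tested. Schwann cells had the highest Socs3 in Uninjured, 3 and 7 dpi, with 1654 (1570 to 1740), 2112 (2014 to 2214), 2421 (2272 to 2578) and 1308 (1198 to 1425), and overlapped myogenic cells at 1 dpi. Their dissociation sums, 40376, 35872, 36141 and 24780, had another order than their Socs3, apart from 7 dpi, the lowest library in both. The part of these genes in the Schwann cell result was not tested. Neutrophils were at 210 (157 to 275), 71.1 (62.9 to 80.0), 58.4 (46.4 to 72.5) and 441 (337 to 566), that is 2.95-fold lower at 1 dpi than in Uninjured (2.15 to 3.98) and 7.55-fold higher at 7 dpi than at 3 dpi (5.33 to 10.7). The log2 ratio of 1 dpi to Uninjured, -1.56, was -0.71 after thinning and -0.99 with equal weight per cell, both under 2-fold. The summed dissociation genes of neutrophils, 19296, 16080, 14862 and 25372 CPM, had the same order of libraries, and their part in the result was not tested. The Uninjured and 7 dpi neutrophils were few, with 52 and 61 Socs3 UMIs in 52 and 83 cells. Monocytes and macrophages were at 541, 620, 759 and 430. B cells were at 34.9, 55.9, 53.9 and 56.2, the lowest level of the ranked classes in Uninjured, 1 and 7 dpi.

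Read as one list in MSC lineage cells, most of the 10 genes were lower at 7 dpi than at 3 dpi, and fewer differed at the earlier steps. A gene was counted when its level differed at least 2-fold between libraries, with at least 30 UMIs in the pair, and as the count has no test it is set beside the share of all genes. At 1 dpi against Uninjured 3 of 10 were higher (Il6, Osmr and Osm, the last in a share of cells near that of B cells) and none lower, where 9.35% of all genes were higher and 5.0% lower. Their median log2 ratio was 0.64 against 0.17 for all genes. At 3 dpi against 1 dpi 1 of 10 was higher (Il11) and none lower, where 6.76% of genes were higher and 5.72% lower, with a median of 0.37 against -0.07. The log2 ratio of Il11 at this step was 0.81 with equal weight per cell and -0.05 after thinning. It stayed past 2-fold under the other alternatives. At 7 dpi against 3 dpi none of 10 was higher and 7 were lower (Il6, Il11, Il6st, Il6ra, Osmr, Lifr and Socs3), where 11.3% of genes were higher and 7.58% lower, with a median of -1.13 against -0.05. Il11 and Il6st were under 2-fold with equal weight per cell (log2 ratios of -0.45 and -0.90) and after thinning (-0.45 and -0.98), which leaves 5 genes, and Il11 was at -0.62 with linear SD limits. At 1 dpi thinning added Clcf1 (1.58), Il11 (1.20) and Lif (1.01) to the higher genes, for 6 in all. That count includes Osm, and Il11 was at -1.86 with no cell filter. The share of all genes was not computed under these alternatives, so the counts of 5 and 6 have none beside them.

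**Figure D5:**
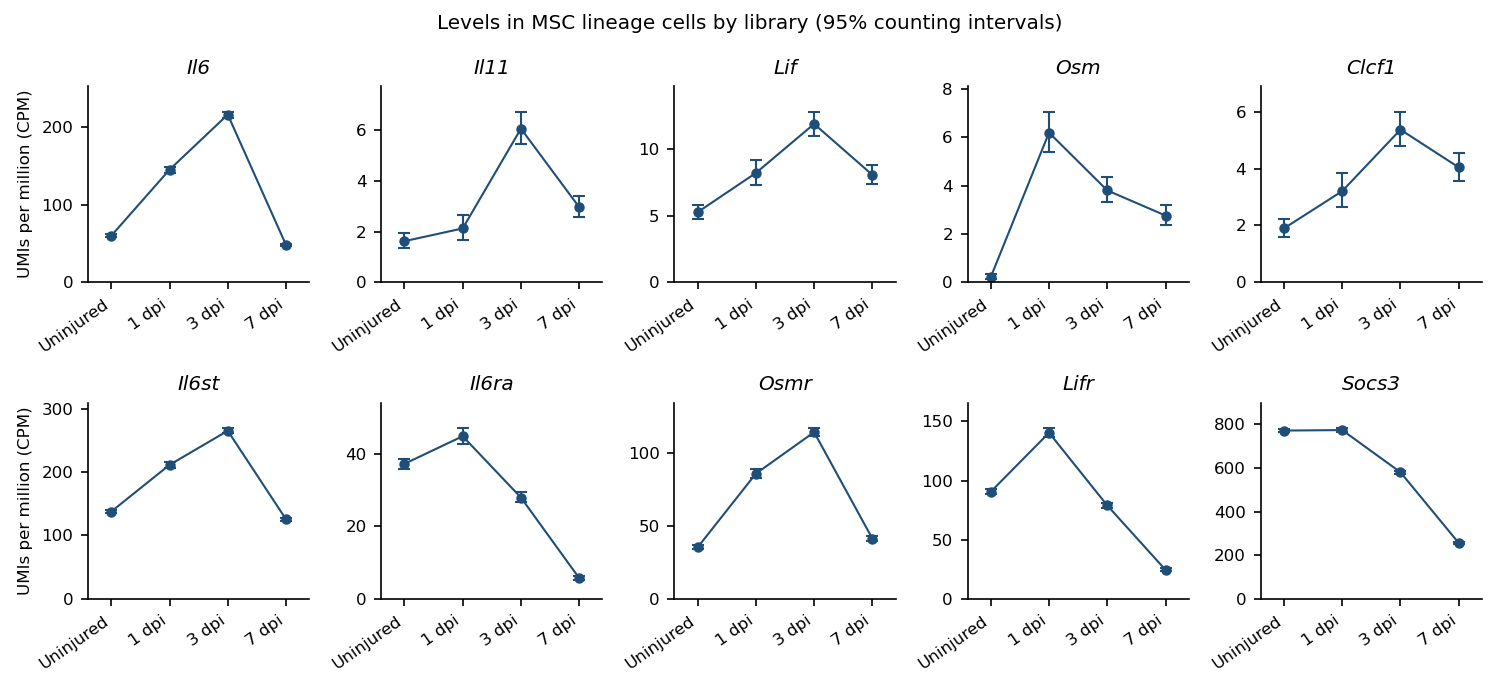
Each panel gives 1 gene in MSC lineage cells as CPM (vertical axis) in Uninjured, 1, 3 and 7 dpi, with bars for 95% counting intervals. Il6, Il6st and Osmr were highest at 3 dpi (217, 265 and 114), Lifr at 1 dpi (140), and Socs3 was level between Uninjured and 1 dpi (772 and 774).

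In monocytes and macrophages 2 of 8 tested genes were higher at 1 dpi than in Uninjured (Il6, and Lif with 4 UMIs in Uninjured), where 16.1% of all genes were higher and 4.62% lower. After median scaling Il6 was just under 2-fold (log2 ratio 0.98), and after thinning the Lif ratio was -0.27. None of 8 passed in either direction at 3 dpi against 1 dpi (5.23% of genes higher, 4.2% lower). At 7 dpi against 3 dpi 4 of 7 were lower (Il6, Osm, Clcf1 and Il6st) and none higher, where 1.95% of genes were higher and 10.0% lower. Clcf1 rested on 28 UMIs at 3 dpi and 2 at 7 dpi, with a log2 interval of -5.10 to 0.0001. Il6st was under 2-fold after thinning (-0.60) and after median scaling (-0.96). In neutrophils 4 genes could be tested at 1 dpi against Uninjured, and Socs3 was lower while none was higher, where 28.8% of genes were higher and 2.89% lower. The 4 genes were Il6 (0 and 38 UMIs), Osm, Il6ra and Socs3, and the median of all genes there was 0.47 on the log2 scale. Il6 was compared with the floor of 3 UMIs in Uninjured. Its 1 dpi level, 9.86 CPM, lay below the upper limit in Uninjured, 14.9 CPM, so its direction cannot be read.

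Genes of the same pathway outside the 10 were read in MSC lineage cells from lists written for this tissue. The lists were chosen with earlier results of these data known, so the counts are descriptions. They stand beside the shares of all genes given above. Of 8 tested further members of the family, Il31ra was higher at 1 dpi than in Uninjured and Ctf1, cardiotrophin 1, was higher at both later steps, with 0.405, 0.503, 1.21 and 3.76 CPM. Il31ra was lower at 7 dpi than at 3 dpi, with 0.291, 0.670, 0.806 and 0.186 CPM in the 4 libraries. Il11ra1, the chain that binds IL-11, was at 514, 448, 372 and 292. Among the intracellular genes Stat5a was higher at 1 dpi (11.4 in Uninjured and 24.3), while Stat3, the main transducer of gp130, was at 87.1, 159, 189 and 105, under 2-fold at each step. At 3 dpi against 1 dpi Cish was higher (4.11 and 9.18) and Stat5b lower (61.2 and 29.1), and at 7 dpi against 3 dpi none passed in either direction. Of 12 genes known to respond to STAT3, 6 were higher at 1 dpi than in Uninjured (Pim1, Timp1, Lcn2, Serpina3n, Saa3 and Hp) and none lower, with a median log2 ratio of 0.86, where 9.35% of all genes were higher and their median was 0.17. Timp1, a protease inhibitor, was at 65.5, 493, 1050 and 663, and Saa3, an acute phase protein, at 0.708, 112, 58.3 and 24.5. Lcn2, lipocalin 2, was at 20.5, 129, 56.5 and 8.72, and Serpina3n, a serine protease inhibitor, at 55.1, 221, 270 and 54.6. At 3 dpi against 1 dpi 3 of the 12 were higher (Timp1, Hp and Il4ra), where 6.76% of all genes were, and Lcn2 was lower. At 7 dpi against 3 dpi 8 of the 12 were lower (Bcl3, Cebpd, Myc, Lcn2, Serpina3n, Saa3, Il4ra and Tnfrsf1b), with a median of -1.30, where 7.58% of all genes were lower and their median was -0.05. Of the 10 dissociation and immediate early genes, Fos and Atf3 were lower at 1 dpi than in Uninjured and Hspa1b at 3 dpi than at 1 dpi, and none passed at 7 dpi against 3 dpi. Socs1, a relative of Socs3, was at 148, 108, 78.5 and 53.3.

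At 7 dpi, the library with chondrocytes, these cells were below MSC lineage cells in some of the genes and above them in others. Chondrocytes had less Il6 (27.2 CPM, 25.05 to 29.5, against 48.1 in MSC lineage cells), less Lif (3.54 against 8.07) and less Il6st (84.4 against 125). They had more Osmr (51.6, 48.6 to 54.7, against 41.2) and more Socs3 (343, 335 to 351, against 256). Il11 (2.61 against 2.96) and Il6ra (5.17 against 5.69) overlapped. Chondrocytes held 26.3% of Osmr UMIs, 20.7% of Il11 UMIs and 13.6% of Il6 UMIs in kept cells of that library.

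The genes with the most similar profile were found by Pearson correlation of log2 levels over 37 combinations of cell class and library, among 8414 genes. The points share libraries and differ in depth, so the values are descriptions. For Osm they were Igsf6 (0.97), Lilr4b (0.96) and Nlrp3 (0.96), the last an inflammasome sensor of myeloid cells. For Il6 they were Chst1 (0.83), Meis2 (0.81) and Itga5 (0.80), and for Socs3 Scarb2 (0.88), Rnd3 (0.85) and Stard9 (0.85). The best values of the sparser cytokines were 0.83 for Clcf1 (Sinhcaf), 0.69 for Il11 (Gmppb) and 0.68 for Lif (Glipr2). Il11 reached at most 6.06 CPM, under the 10 CPM added before the log. The highest Lif level, in neutrophils at 7 dpi, rested on 2 UMIs.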

How the data were processed

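The authors aligned 10x reads with Cell Ranger 5.0.0, which uses STAR, and deposited UMI counts per gene and barcode, whole numbers without scaling. The submitters' processing notes name mm10 and Seurat 3.1.1. A down-sampling of reads appears in the methods, and its place relative to these counts is not stated. Of the gene identifiers, 99.6% matched GENCODE M21 on GRCm38.

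Cells were kept within 2 SD of the library mean of log10 UMIs and log10 genes and at up to 10% mitochondrial UMIs, and the 7.5% with the highest Scrublet scores (scanpy 1.11.5) were removed, since DoubletFinder was not available. Each cell was scored for the marker list of each class, as the mean over markers of the log level divided by its 90th percentile among cells with the marker and limited to 1. It took the highest scoring class with at least 2 markers, a score of at least 0.2 and a runner-up of at most 0.6 of that score. Mesenchymal cells whose chondrocyte score was at least 0.6 of their MSC lineage score were called chondrocytes. UMIs were summed per class and library and divided by all UMIs of that class (CPM, per 1e+06). Intervals are exact Poisson (levels), Clopper-Pearson (shares) and conditional binomial (ratios) at 95%. Those of ratios were tested on simulated Poisson counts. These counts hold no clumping of UMIs within cells, so the test cannot speak for genes whose UMIs lie in few cells. UMIs count molecules after removal of PCR copies. The floor for a level of 0 was 3 UMIs. A gene counted as higher or lower past 2-fold or 0.5-fold with at least 30 UMIs in the pair. All 10 genes are named, with those of pathway lists past 2-fold in MSC lineage cells, pathway genes with values as examples, and the genes most alike by correlation of log2 levels with 10 CPM added. The members and lists were chosen with earlier results of these data known. Classes under 50 cells were not ranked. Alternatives were no cell filter, linear SD limits, doublets kept, a stricter gate, scaling by the median ratio of genes, equal weight per cell, and thinning to 1000 UMIs. Software was Python 3.11.15, matplotlib 3.10.9, pandas 2.3.3, scipy 1.17.1 and numpy 2.4.6. One item of the pathway lists is not reported here.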

Additional observations from a re-analysis of the deposited data

Results flagged for a closer look

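Cells that met no class gate were outside the comparisons, and 3 of the genes had more signal there in some injured libraries than in Uninjured. Il6 in these cells was at 5.82, 16.4, 15.7 and 58.6 CPM in Uninjured, 1, 3 and 7 dpi, that is 2.81-fold, 2.70-fold and 10.1-fold over Uninjured. Osm was at 39.6, 108, 102 and 28.2 CPM, 2.72-fold and 2.59-fold over Uninjured at 1 and 3 dpi and below it at 7 dpi. Osmr was at 5.05, 3.67, 8.33 and 40.2 CPM, 7.96-fold over Uninjured at 7 dpi and below it at 1 dpi. These cells numbered 337, 829, 2190 and 1668.

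Socs3 went opposite ways in 2 cell classes between Uninjured and 1 dpi. It was higher in myogenic cells, by 1.07 on the log2 scale (1028 to 2154 CPM), while the neutrophil log2 ratio was -1.56 (210 to 71.1), -0.99 with equal weight per cell and -0.71 after thinning. With 1 library per time point the difference between the classes was not tested.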

How the results depend on the processing

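Over 56 results and 7 alternatives, 390 values were computed, of which 279 moved less than their counting interval and 111 more, and 16 changed sign. Log2 ratios of 1 dpi to Uninjured are given, in MSC lineage cells unless named. The values as reported were 0.76 for Clcf1, 0.39 for Il11, 1.28 for Il6, 0.62 for Il6st, 0.64 for Lif, 0.63 for Lifr, 1.28 for Osmr and 0.00 for Socs3 (0.0042), and in monocytes and macrophages 0.31 for Il6ra, 0.83 for Osm and 0.20 for Socs3, and 0.55 for Osm in neutrophils. With no cell filter they were 0.38 (Clcf1), -1.86 (Il11), 0.21 (Lif) and 0.047 (Socs3), with 78.2% of Uninjured Il11 UMIs in barcodes above the depth limit. With linear SD limits Il6 was 1.149, Lifr 0.76 and Socs3 0.044. Scaled by the median ratio of genes, Il6 was 1.11, Il6st 0.45, Lifr 0.47, Osmr 1.12 and Socs3 -0.16, with 0.090 for Il6ra, 0.61 for Osm and -0.022 for Socs3 in monocytes and macrophages and 0.048 for Osm in neutrophils. With equal weight per cell Il6st was 0.56, Osmr 1.153 and monocyte Osm 0.58. The stricter gate gave 0.78 for neutrophil Osm. Thinned to 1000 UMIs, Clcf1 was 1.58, Il11 1.20, Il6 1.11, Il6st 0.55, Lif 1.01, Lifr 0.69, Osmr 1.20 and Socs3 -0.069, with 0.29 for monocyte Socs3 and 0.85 for neutrophil Osm. Values that were at least 2-fold and changed sign were Il11 at 3 dpi against 1 dpi (1.51, thinned -0.050) and Lif in monocytes and macrophages at 1 dpi against Uninjured (1.51, thinned -0.27). The other changes of sign, from values under 2-fold, were Il11 and Socs3 as given, Socs3 in MSC lineage cells with doublets kept (-0.011), Osm in MSC lineage cells at 7 against 3 dpi (0.05), 1 to 3 values each of Clcf1, Il6st and Lifr in monocytes and macrophages, and Il6ra in neutrophils. The cause of these moves was not tested. The direction for Socs3 in MSC lineage cells is therefore not read. Single libraries limit all values. No paired analysis was possible because each time point had 1 library.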

Other observations

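In monocytes and macrophages, genes of the pathway outside the 10 members were read by the same lists. Levels are given in CPM for Uninjured, 1, 3 and 7 dpi. Among the intracellular genes Socs1, an inhibitor of JAK kinases, was at least 2-fold higher at 1 dpi than in Uninjured, at 17.3, 37.0, 18.02 and 9.73, and none was lower. Of the 12 STAT3 response genes 4 were higher and none lower, where 16.1% of all genes were higher. They were Bcl3 (34.6, 90.4, 102 and 44.9), Tnfrsf1b (86.9, 215, 137 and 105), Lcn2 (0 UMIs in Uninjured and 16.1 at 1 dpi) and Serpina3n (2 UMIs in Uninjured). Of 5 tested further members of the family, Il27 was higher (3 and 65 UMIs) and the receptor gene Il27ra lower (18 and 14 UMIs). At 3 dpi against 1 dpi Socs2 was higher and Socs1 and Saa3 lower. At 7 dpi against 3 dpi Socs2 and Cish were lower, and 4 of 11 tested STAT3 response genes were lower (Bcl3, Lcn2, Saa3 and Il4ra), where 10.0% of all genes were, and Hp, haptoglobin, was higher, at 151 and 348 CPM. Atf3 alone of the 10 dissociation genes differed 2-fold in these cells, and was lower at 1 dpi than in Uninjured. In neutrophils at 1 dpi against Uninjured, Tyk2, Stat5b and Pias3 were higher and Stat5a lower of 10 tested intracellular genes, and Myc was higher and Cebpb lower of 9 tested STAT3 response genes. These counts of higher genes are near or under the share of all genes in that comparison, 28.8%.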
